A study of Mus musculus with 22 samples.

Results

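The report describes where Foxp3, NFAT1 and p300 lay on the same stretches of chromatin in IkE5 regulatory T (Treg) cells of the mouse, and which of those stretches carried acetylated histone H3 lysine 27 (H3K27ac). The members are 8 chromatin immunoprecipitation sequencing (ChIP-seq) peak lists, 2 libraries for each of the 4 targets, out of 22 samples in the series, 18 of which came with a list. The cells were primary Treg cells from spleen and lymph nodes, with the genotype given as IkE5-deletion. The labels leave that name unexpanded. The series title speaks of Ikzf1, which encodes the zinc finger factor Ikaros, and a peak list cannot tell how much Ikaros protein these cells had. All cells had been stimulated for 1 h with a commercial cocktail and fixed in 1% formaldehyde, for 5 min before the histone immunoprecipitation and for 30 min before that of the factors. Age, number of animals and pooling are not given, and nothing says that the libraries of a target came from separate animals, so a spread between libraries may be technical. No wild-type list was used, so nothing below says what the IkE5 genotype changes.

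Foxp3 is the forkhead transcription factor that defines the Treg lineage and maintains its programme of gene activation and repression. NFAT1, the product of Nfatc2, stays in the cytoplasm of resting T cells and enters the nucleus when antigen receptor signals raise calcium and activate the phosphatase calcineurin. It binds DNA alone, with AP-1 factors at genes of effector responses, or with Foxp3. p300 is an acetyltransferase that factors bring to enhancers and promoters, where it acetylates histone tails, H3K27 among them, and H3K27ac is the usual mark of active enhancers and promoters.

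For each target the peaks of both libraries were joined where they overlapped by 1 bp or more, and regions with a peak in both libraries were kept. The kept regions of the 3 factors were then joined in the same way into 13891 sites, and each site was assigned to 1 of 7 combinations by the factors it held. A site is called acetylated where it overlaps a region with an H3K27ac peak in both libraries. Coordinates are of mm10. Gene starts are those of the RefSeq promoter table for GRCm38.p6, the assembly of mm10, which placed 13510 of the sites. That table lists a start for 17492 of 21887 protein-coding genes, so a site at an unlisted start counts as farther away.

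Windows at gene starts that overlapped a site of all 3 factors are shown here as sequence, because their letters are in the reference tables. A site need not cover the whole window or the start itself, and that of Egr2 ends before the start. Of 21263 RefSeq start windows (250 bp before to 50 bp after a start) 168, or 0.79%, overlapped such a site, and they belonged to 149 genes. Below are 4 of them, picked after their letters were seen from the genes of the lists described further on. They are printed 5′ to 3′ along the gene in the GRCm38.p6 build. Capitals mark the core GGAAA that NFAT proteins bind (TTTCC on the other strand) and the AP-1 element TGANTCA. Egr2 (chr10:67537316-67537615, plus strand) encodes a zinc finger factor induced through NFAT, and its window overlapped the acetylated site chr10:67536957-67537546. Tnfaip3 (chr10:19015361-19015660, minus strand) encodes A20, the ubiquitin-editing brake on NF-kappaB, and its window overlapped chr10:19015196-19015801. Il2rg (chrX:101268206-101268505, minus strand) encodes the common gamma chain of the interleukin 2 receptor, and its window overlapped chrX:101268047-101268703. Runx1 (chr16:92826025-92826324, minus strand) encodes a DNA-binding partner of Foxp3, and its window overlapped chr16:92825397-92826445.
Egr2: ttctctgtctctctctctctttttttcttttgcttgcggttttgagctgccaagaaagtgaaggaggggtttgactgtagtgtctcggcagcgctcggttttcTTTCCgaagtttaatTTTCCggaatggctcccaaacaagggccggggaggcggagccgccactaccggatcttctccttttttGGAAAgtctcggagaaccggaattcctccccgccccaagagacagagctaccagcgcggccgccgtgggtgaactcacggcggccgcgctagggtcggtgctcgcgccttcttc
Tnfaip3: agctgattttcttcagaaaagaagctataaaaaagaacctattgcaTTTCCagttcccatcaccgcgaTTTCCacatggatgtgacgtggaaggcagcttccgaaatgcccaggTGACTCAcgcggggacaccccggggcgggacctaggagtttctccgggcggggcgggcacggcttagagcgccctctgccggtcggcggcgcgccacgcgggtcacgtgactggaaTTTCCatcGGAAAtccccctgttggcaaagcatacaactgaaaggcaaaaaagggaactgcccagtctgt
Il2rg: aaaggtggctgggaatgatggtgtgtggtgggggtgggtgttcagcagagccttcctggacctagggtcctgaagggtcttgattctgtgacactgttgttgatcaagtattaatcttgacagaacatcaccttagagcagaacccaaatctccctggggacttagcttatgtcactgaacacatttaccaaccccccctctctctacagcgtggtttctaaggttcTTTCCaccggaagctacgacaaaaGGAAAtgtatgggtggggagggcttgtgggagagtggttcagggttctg
Runx1: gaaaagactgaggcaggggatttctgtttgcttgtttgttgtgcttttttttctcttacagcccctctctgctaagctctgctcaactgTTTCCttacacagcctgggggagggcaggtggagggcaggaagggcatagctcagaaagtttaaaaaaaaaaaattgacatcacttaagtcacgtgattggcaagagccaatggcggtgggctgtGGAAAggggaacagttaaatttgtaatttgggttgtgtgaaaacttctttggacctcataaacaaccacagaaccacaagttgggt
The NFAT core occurred 3 times in the Egr2 window, 4 times in that of Tnfaip3, and 2 times each in those of Il2rg and Runx1. Tnfaip3 also had 1 AP-1 element. Over the 168 windows with all 3 factors, searched on both strands, GGAAA was found in 76.8%, against 59.9% of all windows and 60.4% of the 3367 windows at a site of Foxp3 alone. It was in 67.4% of the 1115 windows with Foxp3 and p300, 78.6% of the 28 with Foxp3 and NFAT1, 64.3% of the 42 with NFAT1 and p300, 55.6% of the 27 with NFAT1 alone, and 55.8% of acetylated windows without a site. The AP-1 element was found in 8.33% against 6.99% of all windows, 3.83% with Foxp3 alone and 4.4% of acetylated windows without a site. It was in 4.22% with Foxp3 and p300, 4.58% with p300 alone, 10.7% with Foxp3 and NFAT1, 14.3% with NFAT1 and p300 and 11.1% with NFAT1 alone. The forkhead element TGTTTAC was in 4.17% against 3.01% of all windows and 3.03% with Foxp3 alone. The RUNX element TGTGGTT was in 10.7% of the windows with all 3 factors, 4.71% of all windows and 3.5% of those with Foxp3 alone. It was in 11.9% with NFAT1 and p300, 3.77% with Foxp3 and p300 and 3.57% with Foxp3 and NFAT1. It was in 1.96% with p300 alone and 3.7% with NFAT1 alone. It occurred 2 times in the Runx1 window and is not in capitals there. The ETS element CCGGAAG was in 28% of the windows with all 3 factors, 28.4% with Foxp3 alone and 11.6% of all windows. The cyclic AMP response element TGACGTCA was in 7.74%, 3.95% and 2.23% in the same order. With Foxp3 and p300 the ETS and response elements were in 29.9% and 6.64%, and with Foxp3 and NFAT1 in 28.6% and 10.7%. With NFAT1 and p300 they were in 7.14% and 2.38%. Windows with p300 alone had them in 15% and 5.23%, and those with NFAT1 alone in 18.5% and 3.7%. CCGGAAG holds GGAAG, so a match to it is never a match to GGAAA at the same letters. The median GC content was 57.8% in windows with all 3 factors, 61% with Foxp3 alone and 56.3% over all windows. A match describes letters in a window and is not a binding site.

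The lists differed in length, and the 2 libraries of Foxp3 stood apart from each other. Foxp3 had 21619 and 17265 peaks in replicates 1 and 2, NFAT1 4908 and 3435, p300 11670 and 8971, and H3K27ac 47982 and 37152. Read depth is unknown, because a list holds no reads, and no list had a score or p-value. Regions in both libraries numbered 11229 for Foxp3 (40.7% of its joined regions), 2647 for NFAT1 (46.5%), 6474 for p300 (45.8%) and 27789 for H3K27ac (54.3%), the last covering 67.7 Mb. Factor peaks had a uniform width of 500 bp with 1 exception. At most 0.64% of the intervals of any pair of lists were identical, so no library was a copy of another.

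The 10338 Foxp3 regions seen in replicate 1 and not in replicate 2 met the other factors more often than the 6023 seen in replicate 2 alone, and lay less often at gene starts. Of the former 19.4% overlapped a p300 region and 10.3% an NFAT1 region, and 11.9% lay within 1 kb of a gene start. Of the latter 2.39% overlapped p300 and 0.365% NFAT1, and 28.3% lay within 1 kb of a start. The H3K27ac share was alike, 61.1% and 59.8%. NFAT1 split less, with p300 at 48.1% of its regions found in replicate 1 alone and at 44.1% of those in replicate 2 alone. In the same order Foxp3 was at 43.1% and 29.9% of these NFAT1 regions, and H3K27ac at 81.4% and 74.3%. Numbers of sites, shares between factors, acetylation, distance to starts and gene lists are therefore also given with a single Foxp3 library where it moved them. Other counts rest on regions in both Foxp3 libraries.

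**Figure D1:**
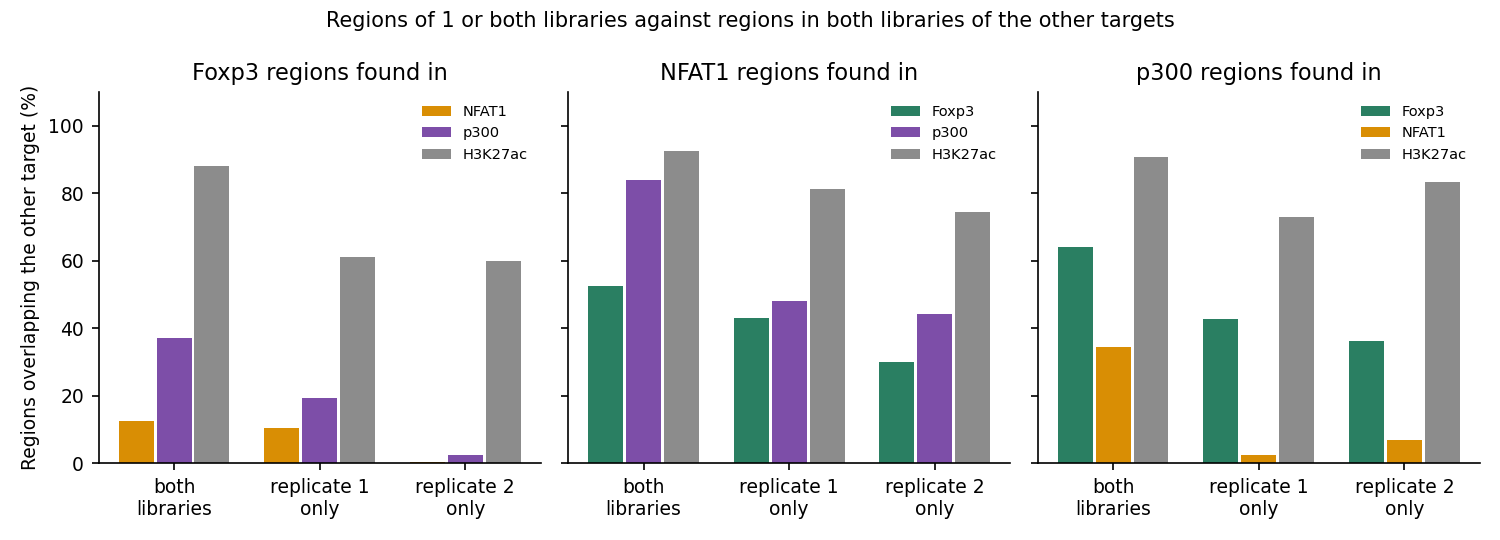
Share of Foxp3, NFAT1 and p300 regions (vertical axis, %) that overlapped a region in both libraries of each other target, for regions found in both libraries, in replicate 1 only and in replicate 2 only. For Foxp3 the p300 bar drops from 37% to 19.4% and 2.39%, whereas for NFAT1 it stands at 84%, 48.1% and 44.1%.

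All 3 factors met at 1324 sites, 9.53% of the total. Foxp3 with p300 made up 2832 sites (20.4%), NFAT1 with p300 901 (6.49%) and Foxp3 with NFAT1 without p300 73 (0.526%). Foxp3 alone held 6997 sites (50.4%), p300 alone 1415 (10.2%) and NFAT1 alone 349 (2.51%). When each factor was represented by 1 library, the 8 possible choices gave 1547 to 3539 sites of all 3 factors, 6.95% to 15.2% of the sites of each choice, and Foxp3 alone kept the largest share, 44.1% to 58.4%. The Foxp3 plus NFAT1 class without p300 stayed small, between 0.359% and 2.67%. The class of NFAT1 with p300 ran from 106 to 1598 sites. It held 106 to 239 sites in the 4 choices with Foxp3 replicate 1 and 1226 to 1598 in the 4 with replicate 2, 2 ranges that do not overlap.

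**Figure D2:**
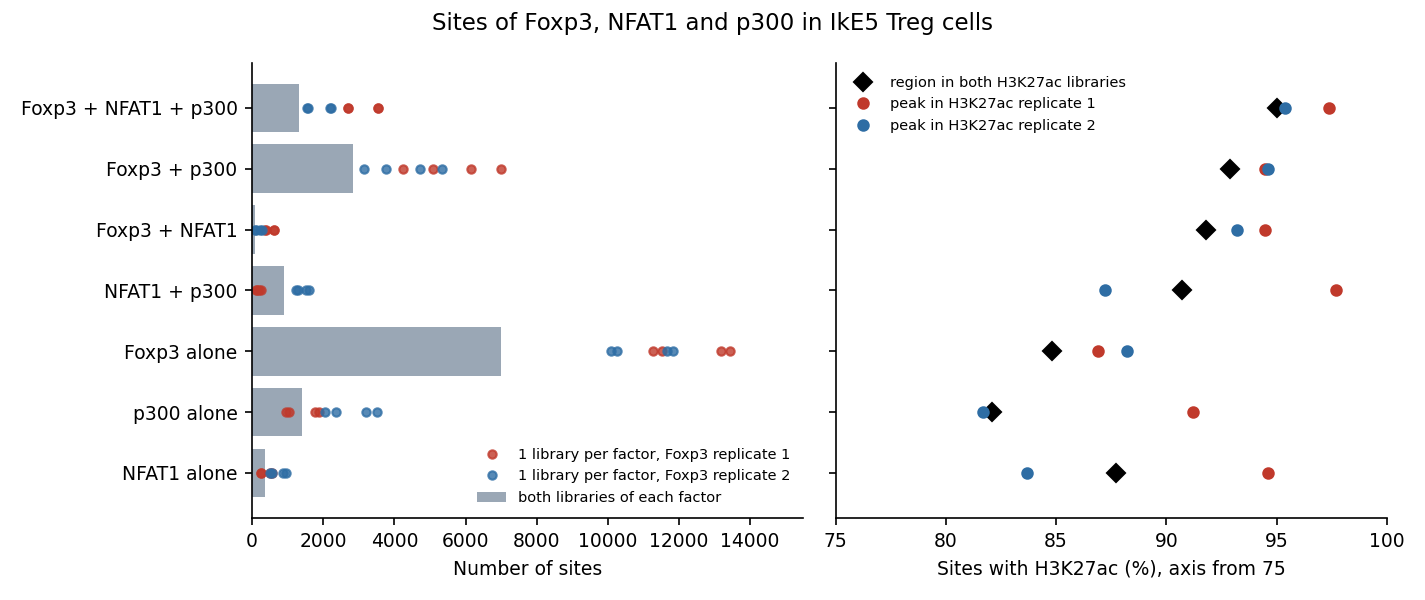
Left, number of sites in each combination when a factor had to be in both of its libraries (bars) and for the 8 choices of 1 library per factor (points, coloured by the Foxp3 library). Right, share of sites with H3K27ac (%, axis starting at 75) in both libraries joined and in each library. Points for NFAT1 + p300 separate by Foxp3 library, 106 to 239 against 1226 to 1598, and Foxp3 + NFAT1 + p300 has the highest joined H3K27ac share, 95%.

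The absence of Foxp3 from a site was in most cases absence from replicate 2. Of the 901 sites of NFAT1 with p300, 836 had a Foxp3 peak in replicate 1, 4 had one in replicate 2, and 49 (5.44%) had none in either. Of the 1415 sites of p300 alone, 1108 had a Foxp3 peak in replicate 1 and 183 in neither library. With Foxp3 replicate 1 taken alone and the other factors still in both libraries, 2170 sites held all 3 factors, 54 held NFAT1 with p300 and 298 held p300 alone. With Foxp3 replicate 2 taken alone the counts were 1338, 887 and 1298 in the same order. Leaving out NFAT1 replicate 2 in place of a Foxp3 library gave 2028 sites of all 3 factors. The absence of NFAT1 was more even: of the 2832 sites of Foxp3 with p300, 1968 (69.5%) had no NFAT1 peak in either library. For p300, 4005 of the 6997 sites of Foxp3 alone (57.2%) had no peak in either library and 42.4% had one in a single library. The share with no p300 peak in either library was 35% of the 349 sites of NFAT1 alone and 17.8% of the 73 sites of Foxp3 with NFAT1. At the sites of NFAT1 alone 37% had no Foxp3 peak in either library.

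NFAT1 was found with p300 at most of its sites. p300 regions overlapped 84% of the NFAT1 regions, and single library pairs gave 75.9% to 82.4%. Foxp3 overlapped 52.6% of the NFAT1 regions, and here the library pairs ranged from 47.5% to 88.9%, 84.4% and 88.9% with Foxp3 replicate 1 and 49.3% and 47.5% with replicate 2. In the other direction NFAT1 was at 12.4% of the Foxp3 regions (9.47% to 19.2%) and at 34.4% of the p300 regions (23.9% to 42%). p300 was at 37% of the Foxp3 regions (30.8% to 44.9%), and Foxp3 at 64.2% of the p300 regions (59.3% to 86.7%). A share depends on the lengths of both lists, and NFAT1 had the fewest regions and Foxp3 the most.

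Most sites shared by NFAT1 and Foxp3 also held p300. Of 4156 sites holding Foxp3 and p300, 31.9% held NFAT1, and of 7070 sites with Foxp3 and no p300, 1.03% did. Over the 8 library choices these shares were 22.7% to 45.4% and 0.784% to 5.17%, ranges that do not overlap. They were 27.7% to 45.4% and 2.62% to 5.17% with Foxp3 replicate 1, and 22.7% to 40.9% and 0.784% to 2.25% with replicate 2. Restricting the count to acetylated sites left 32.4% and 1.12%. Read from NFAT1, p300 was at 94.8% of the Foxp3 sites with NFAT1 and at 28.8% of those without, 85.1% to 95.1% and 21.2% to 37.8% over the library choices. Foxp3 itself was at 59.5% of the p300 sites with NFAT1 and at 66.7% of those without. That order depended on the Foxp3 library. The 4 choices with replicate 1 gave 93.7% to 96.2% with NFAT1 and 77.6% to 82.9% without, and the 4 with replicate 2 gave 54.6% to 59.1% and 59.5% to 61.6%.

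Within the 1324 sites of all 3 factors the peak centres lay close together, at about the distance that separates the libraries of a single factor. NFAT1 and p300 centres were 44.4 ± 3.94 bp apart (mean of the medians of 4 library pairs, SD), against a median of 41 bp between the NFAT1 libraries and 46 bp between the p300 libraries. Foxp3 replicate 1 lay a median of 35 and 46 bp from the p300 libraries and 41 and 44 bp from the NFAT1 libraries. Foxp3 replicate 2 lay 72.5 and 66 bp from p300 and 81 bp from each NFAT1 library, and 62 bp from replicate 1. The means over library pairs, 54.9 ± 17.4 bp for Foxp3 and p300 and 61.8 ± 22.3 bp for Foxp3 and NFAT1, therefore join 2 different libraries. No order of the factors along the DNA can be read at this resolution.

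Sites of all 3 factors were acetylated at 95%, and only 1.66% of them (22 sites) had no H3K27ac peak in either library. The share in single H3K27ac libraries was 96.4 ± 1.39% (SD, n = 2). Sites of Foxp3 alone were acetylated at 84.8% (87.6 ± 0.91% in single libraries), a difference from the sites of all 3 factors that exceeds the spread between the libraries, and 9.03% of them had no H3K27ac in either. With Foxp3 replicate 1 alone the acetylated shares of both classes were 93.3% and 68.6%, and with replicate 2 alone 95.1% and 73%. Foxp3 with p300 stood between, at 92.9% (94.6 ± 0.0749%). For the classes without Foxp3 the H3K27ac libraries differed from each other more: NFAT1 with p300 gave 97.7% and 87.2%, p300 alone 91.2% and 81.7%, and NFAT1 alone 94.6% and 83.7%, so their order against the other classes cannot be read.

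The difference in acetylation lay away from the listed gene starts. Within 1 kb of a start 98.8% of the sites of all 3 factors and 98.4% of those of Foxp3 alone were acetylated. Elsewhere the shares were 94.6% of 1117 sites and 74.5% of 3857 sites. They were 92.8% and 58.3% with Foxp3 replicate 1 alone, and 94.7% and 60.1% with replicate 2 alone. Foxp3 sites with no p300 and no NFAT1 peak in any library, 3912 in number, were acetylated at 81.6%, and 11.7% of them had no H3K27ac in either library.

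The acetylated regions that held all 3 factors were wider than those at Foxp3 alone. They were narrower than those at NFAT1 sites without a Foxp3 region found in both libraries. The region at a site of all 3 factors had a median width of 3691 bp (quartiles 2567 and 5684), against 2049 bp (1568 and 2777) at Foxp3 alone. The median was 4692 bp (2826 and 8048) at NFAT1 with p300 and 5607 bp (3164 and 11342) at NFAT1 alone. Most sites of these 2 classes had a Foxp3 peak in replicate 1 only, 836 of 901 and 213 of 349. Widths were not recomputed with a single Foxp3 library, so they do not set sites with Foxp3 against sites without it. Of 27789 acetylated regions 1253 (4.51%) held a site of all 3 factors, from 0.382% of those under 1 kb to 22% of those of 10 kb or more. A wide region has more room for a site. Per covered Mb the count was 4.89 under 1 kb, 9.32 between 1 and 2 kb, 24.1 between 2 and 5 kb, 24.6 between 5 and 10 kb and 15.3 above. Foxp3 alone followed another course, with 159.3 sites per Mb between 1 and 2 kb and 11.2 above 10 kb. The count for p300 alone was, like that of all 3 factors, higher between 2 and 5 kb (21.3) than under 1 kb (12.1) or above 10 kb (11.9).

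In 12 acetylated regions 2 sites of all 3 factors lay side by side. The widest region of the whole list was among them, an 81.1 kb stretch over Dad1 (chr14:54158633-54239770), a subunit gene of oligosaccharyltransferase next to which the enhancer of the T cell receptor alpha locus lies. The next in width were a 45.3 kb region overlapping no protein-coding gene (chr8:126842586-126887912), which also held 2 sites of NFAT1 with p300, and a 21.3 kb region over Ifitm2, Ifitm5 and Pgghg (chr7:140940415-140961711). Others, of which Gimap6 and Zap70 were picked after the regions were seen, covered Cish (chr9:107294203-107306817), whose product restrains cytokine and antigen receptor signals, Gimap6 (chr6:48695838-48710280), a lymphocyte GTPase gene, and Zap70 (chr1:36759116-36770904), the kinase that relays T cell receptor signals.

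Sites of all 3 factors were mostly distal to the listed starts, among the sites off chromosome 18, where distances were not analysed here. Not every gene elsewhere has a listed start (17492 of 21887 do), and a site at an unlisted start counts as distal. For sites of all 3 factors the median distance to the nearest listed start was 32.9 kb. Of them 13.3% lay within 1 kb of a start, 37.8% elsewhere inside a protein-coding gene, 12.6% within 10 kb of one and 36.3% farther away. Sites of Foxp3 alone had a median distance of 6.89 kb and 43.3% lay within 1 kb of a start. With replicate 1 lists the shares within 1 kb were 13.3% for all 3 factors and 25.8% for Foxp3 alone, and with replicate 2 lists 15.3% and 35.9%, so the difference exceeds that between the libraries while its size depends on them. With a single Foxp3 library and the other factors in both, the shares were 11.9% and 26.9% for replicate 1 and 13.7% and 36.4% for replicate 2. Foxp3 with p300 was within 1 kb of a start at 33.6% of sites, NFAT1 with p300 at 9.6%, p300 alone at 13.2% and NFAT1 alone at 13%. Seen from the starts, 67.3% of the 4380 sites there were Foxp3 alone and 3.93% held all 3 factors, whereas of 9130 sites farther away 42.2% and 12.2% did.

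**Figure D3:**
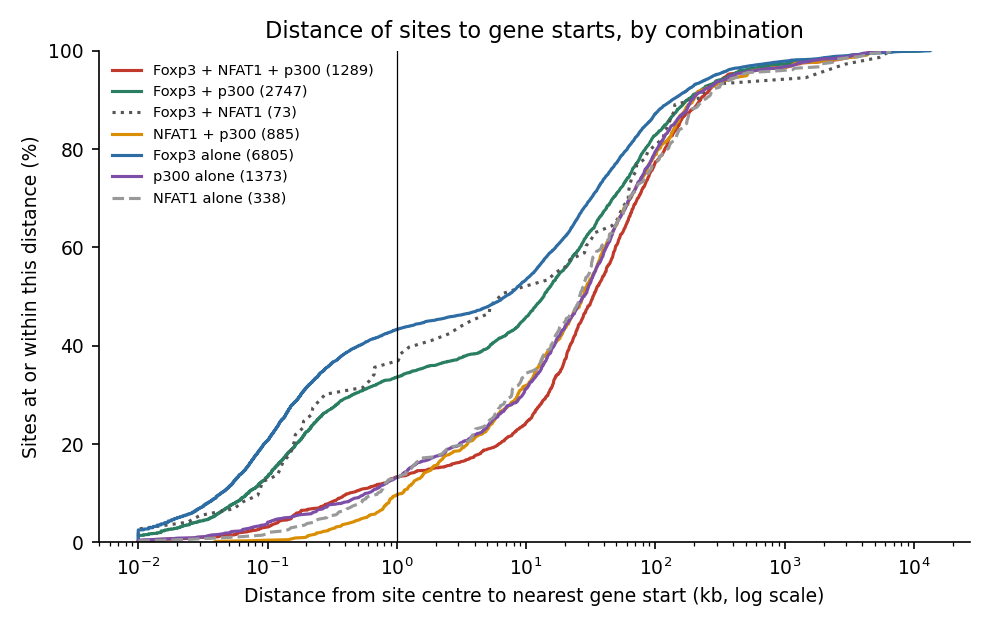
Cumulative share of sites (%) by distance from the site's centre to the nearest listed gene start (kb, log scale, distances under 10 bp drawn at 10 bp), for the 7 combinations with the number of placed sites in brackets. The vertical line marks 1 kb, where Foxp3 alone has reached 43.3% and Foxp3 + NFAT1 + p300 13.3%. The lines with Foxp3 that lack NFAT1 or p300 rise early, and at 10 kb the line of all 3 factors lies lowest.

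Over the genome, 947 of 21887 protein-coding genes (4.33%) had a site of all 3 factors inside them or within 10 kb, and 45% had a site of any combination. Of the genes with a site of any combination 9.62% had one of all 3 factors. With Foxp3 replicate 1 alone 1454 genes had a site of all 3 factors, and with replicate 2 alone 961. Genes with such a site were longer than others, a median of 40.9 kb against 17.2 kb over all genes, so long genes had more room for one. The lists below were written with earlier results of these data known, and their counts are descriptions beside these backgrounds, with no test. Genes named beyond the leading 4 of a list were picked after their counts were seen. Among genes with a site of any combination, the share was 53.8% in the NF-kappaB and TNF receptor list and 37.9% in the Treg signature. It was 23.1% in each of the NFAT signalling and activation lists and 7.69% among effector cytokines.

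Genes of NF-kappaB signalling and tumour necrosis factor receptors had 14 of 28 (50%), the highest share where each factor had to be in both libraries. It was not the highest under each rule: with the replicate 1 lists alone, that is without replicate 2 of any target, this list had 19 of 28 and the inhibitory receptor list 14 of 18. They included Tnfrsf9 (4-1BB), Fas and Tnfaip8 with 2 sites each, Tnfrsf18 (GITR), Tnfrsf4 (OX40), Tnfrsf1b (TNFR2), the adaptor gene Traf2, the feedback regulator Tnfaip3, the I-kappaB family genes Nfkbib and Nfkbiz, and the survival genes Bcl2, Bcl2l1 and Birc3. Genes of the Treg signature had such sites at 11 of 33, at 22 without replicate 2 of any target, at 18 without Foxp3 replicate 2 and at 4 within 2 kb. Over all genes the last 3 settings gave 2310, 1454 and 717. The 11 Treg signature genes were Foxp3 itself, Ikzf2 (Helios), Il10, the ectonucleotidase gene Entpd1 (CD39), the integrin gene Itgb8, Izumo1r (folate receptor 4), Nrp1, and the 4 receptor genes Tnfrsf9, Tnfrsf18, Tnfrsf1b and Tnfrsf4 that are also in the NF-kappaB list. Tnfrsf18 and Tnfrsf4 are neighbours and were counted for the same site, chr4:156021926-156022597.

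Inhibitory receptor and exhaustion genes had a site of all 3 factors at 6 of 18, with 3 in Tox, a factor of exhausted T cells, and 2 at Btla. Interleukin 2 receptor, STAT5 and SOCS genes had one at 6 of 19, among them Il2rg, the kinase genes Jak1 and Jak3, and Cish with 3 sites. Genes of calcium and NFAT signalling had one at 6 of 28, including Cblb, a ubiquitin ligase that dampens activation, Itpr1 and Stim1, which release and sense stored calcium, and Dyrk1a, a kinase that opposes NFAT. DNA-binding partners and coactivators of Foxp3 had one at 6 of 28, with 2 sites each at Runx1, Runx2 and Smad3. Among Ikaros relatives and corepressors 3 of 28 had one, Ikzf1, Ikzf2 and Ikzf3. AP-1 and activation genes had one at 6 of 33, lineage genes of other helper cells at 5 of 22 and effector cytokines at 1 of 25, the exception being Il3. Most of these counts rose when 1 library was not required. Without Foxp3 replicate 2 the counts were 12 for inhibitory receptor genes, 11 for interleukin 2 receptor genes, 14 for NFAT signalling, 13 for AP-1 and activation genes, 6 for effector cytokines and 5 for Ikaros relatives and corepressors. Those of Foxp3 partners (8) and of other helper lineages (5) moved less. Without NFAT1 replicate 2 they were 11 for NFAT signalling, 9 for helper lineages, 9 for interleukin 2 receptor genes, 5 for Ikaros relatives and 3 for effector cytokines. Over all genes 1464 had one without NFAT1 replicate 2, and 1454 without Foxp3 replicate 2. Without replicate 2 of any target the counts were 14 for inhibitory receptors, 13 for interleukin 2 receptor genes, 19 for NFAT signalling, 15 for AP-1 and activation genes, 9 for helper lineages, 8 for effector cytokines, 8 for Ikaros relatives, 11 for Foxp3 partners and 2310 over all genes. Markers of other cells had 0 of 14 for B cells, 1 of 15 for myeloid cells (Xcr1, a chemokine receptor gene of dendritic cells) and 0 of 14 for CD8 and NK cells.

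When every site of all 3 factors was given to its nearest protein-coding gene, whatever the distance, 1053 genes (4.81%) received at least 1, and the order of the lists changed. Genes of resting and naive T cells came out highest, with 17 of 20, against 6 of 20 within 10 kb. The count within 10 kb was 9 without Foxp3 replicate 2 and 12 without replicate 2 of any target. They received 35 sites, among them 7 at Bach2, 5 at Btg1, 4 at Foxp1, 3 at Satb1 and 2 each at Foxo1, Lef1 and Tcf7, factors that hold lymphocytes in a resting or naive state. Many of these genes lie in wide stretches without neighbours, and such genes collect distant sites. Of the 7141 genes whose stretch is at least as wide as the median of that list (83 kb), 9.49% received a site. AP-1 and activation genes received one at 17 of 33, including 7 sites at Myc, the closest of them 178.8 kb from the gene, inhibitory receptor genes at 9 of 18 and effector cytokines at 7 of 25. The cytokine genes were Fasl with 5 sites, Tnfsf11 with 3, Ifng with 2, and Il2, Il21, Il3 and Tnfsf8 with 1 each. Within 50 kb of a gene, where 9.54% of all genes had such a site, effector cytokine genes had one at 12 of 25 and naive genes at 14 of 20. Some neighbouring cytokine genes were counted for the same site. These were Il4 and Il13 for chr11:53655025-53655725, which was not acetylated, and Il3 and Csf2 for chr11:54271371-54272171.

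**Figure D4:**
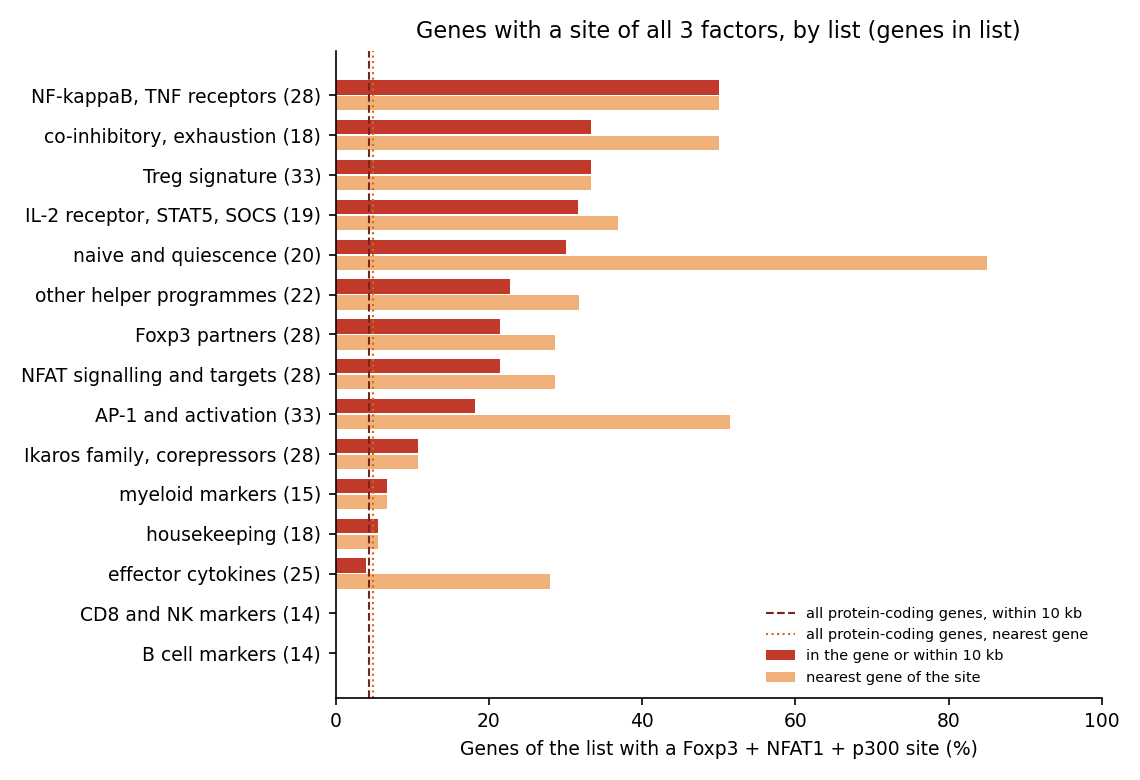
Share of the genes in each list (%, number of genes in brackets) with a site of Foxp3 + NFAT1 + p300 in the gene or within 10 kb (red) and with such a site nearest to it (orange). Vertical lines mark all protein-coding genes, 4.33% and 4.81%. The NF-kappaB and TNF receptor list reaches 50% by either rule, and the naive list goes from 30% to 85%.

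The genes with the most sites of all 3 factors within 10 kb were Hivep2 with 5 and Arid5b, Bach2, Camk2d, Foxp1, Inpp4b and Lrch1 with 4 each. Hivep2 encodes a zinc finger factor and its 5 sites lay inside the gene between 1.24 and 119.8 kb downstream of a start (chr10:13967275-13967956 to chr10:14085799-14086586), all acetylated. Bach2, which encodes a repressor that keeps T cells from effector differentiation, had 16 sites of any combination in a gene of 347.7 kb, 4 of all 3 factors and 4 of NFAT1 with p300. One of the latter, chr4:32560184-32560751, had no Foxp3 peak in either library, and the other 3 had one in replicate 1. Inpp4b, the gene of a phosphoinositide phosphatase, spans 792.0 kb and held 20 sites. Of its 5 sites of NFAT1 with p300 all had a Foxp3 peak in replicate 1 and none in replicate 2.

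At Foxp3 (chrX:7579676-7595243) the site chrX:7583866-7584429, inside the gene, had a peak in all 8 libraries. A site upstream of the gene, chrX:7570678-7571284, had Foxp3 and p300 in both libraries and NFAT1 in replicate 2. At Il2ra, the gene of the high-affinity interleukin 2 receptor chain, the factors were spread over 4 acetylated sites, none with all 3. The site 6.48 kb upstream (chr2:11636042-11636587) had Foxp3 and p300 in both libraries and NFAT1 in replicate 1. The site 2.73 kb downstream of the start (chr2:11645256-11645781) had NFAT1 and p300 in both and Foxp3 in replicate 1. The closest site of all 3 factors was 499.4 kb away.

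At Ctla4, which encodes an inhibitory receptor central to Treg suppression, the single site within 10 kb (chr1:60902451-60903011, 6.29 kb upstream) had NFAT1 and p300 in both libraries and no Foxp3 peak in either. At the Ctla4 start itself Foxp3 and NFAT1 each had a peak in replicate 1 and none in replicate 2, so no site was counted there. Pdcd1, the gene of the inhibitory receptor PD-1, showed 4 combinations side by side by the rule of both libraries. A site of all 3 factors lay beyond its end (chr1:94035097-94035679), and upstream of it lay a site of NFAT1 with p300 and no Foxp3 in either library (chr1:94053388-94053999, 1.14 kb) and a site of Foxp3 with NFAT1 (chr1:94054762-94055438, 2.55 kb). The site of Foxp3 with NFAT1 also had a p300 peak in replicate 2. A site of NFAT1 alone was inside the gene (chr1:94045394-94045973), with a Foxp3 peak in replicate 1 and a p300 peak in replicate 2. Those 2 classes therefore rest on a peak missing from single libraries.

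Tnfrsf9 had 2 acetylated sites of all 3 factors, 4.69 kb upstream (chr4:150915149-150915773) and beyond its end (chr4:150950894-150951632). Irf4, an activation-induced factor of effector Treg cells, had 1 upstream (chr13:30747707-30748651), where the peak of Foxp3 replicate 2 lay apart from the others in the plot of peaks around gene starts. Nr4a1, a nuclear receptor gene induced by antigen receptor signals, had 1 site of all 3 factors (chr15:101246136-101246729) and 1 of Foxp3 with p300 (chr15:101283714-101284323). It also had 1 of NFAT1 with p300, which had a Foxp3 peak in replicate 1, and 2 of NFAT1 alone. Of the sites of NFAT1 alone, chr15:101248608-101249110 had Foxp3 in replicate 1 and p300 in replicate 2. The other, chr15:101256750-101257273, had neither factor in any library. At Il2, which Treg cells normally keep silent, the site at the start (chr3:37125766-37126437) had NFAT1 and p300 in both libraries, Foxp3 in replicate 1 and H3K27ac in replicate 1, and was not acetylated by the rule of both libraries.

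**Figure D5:**
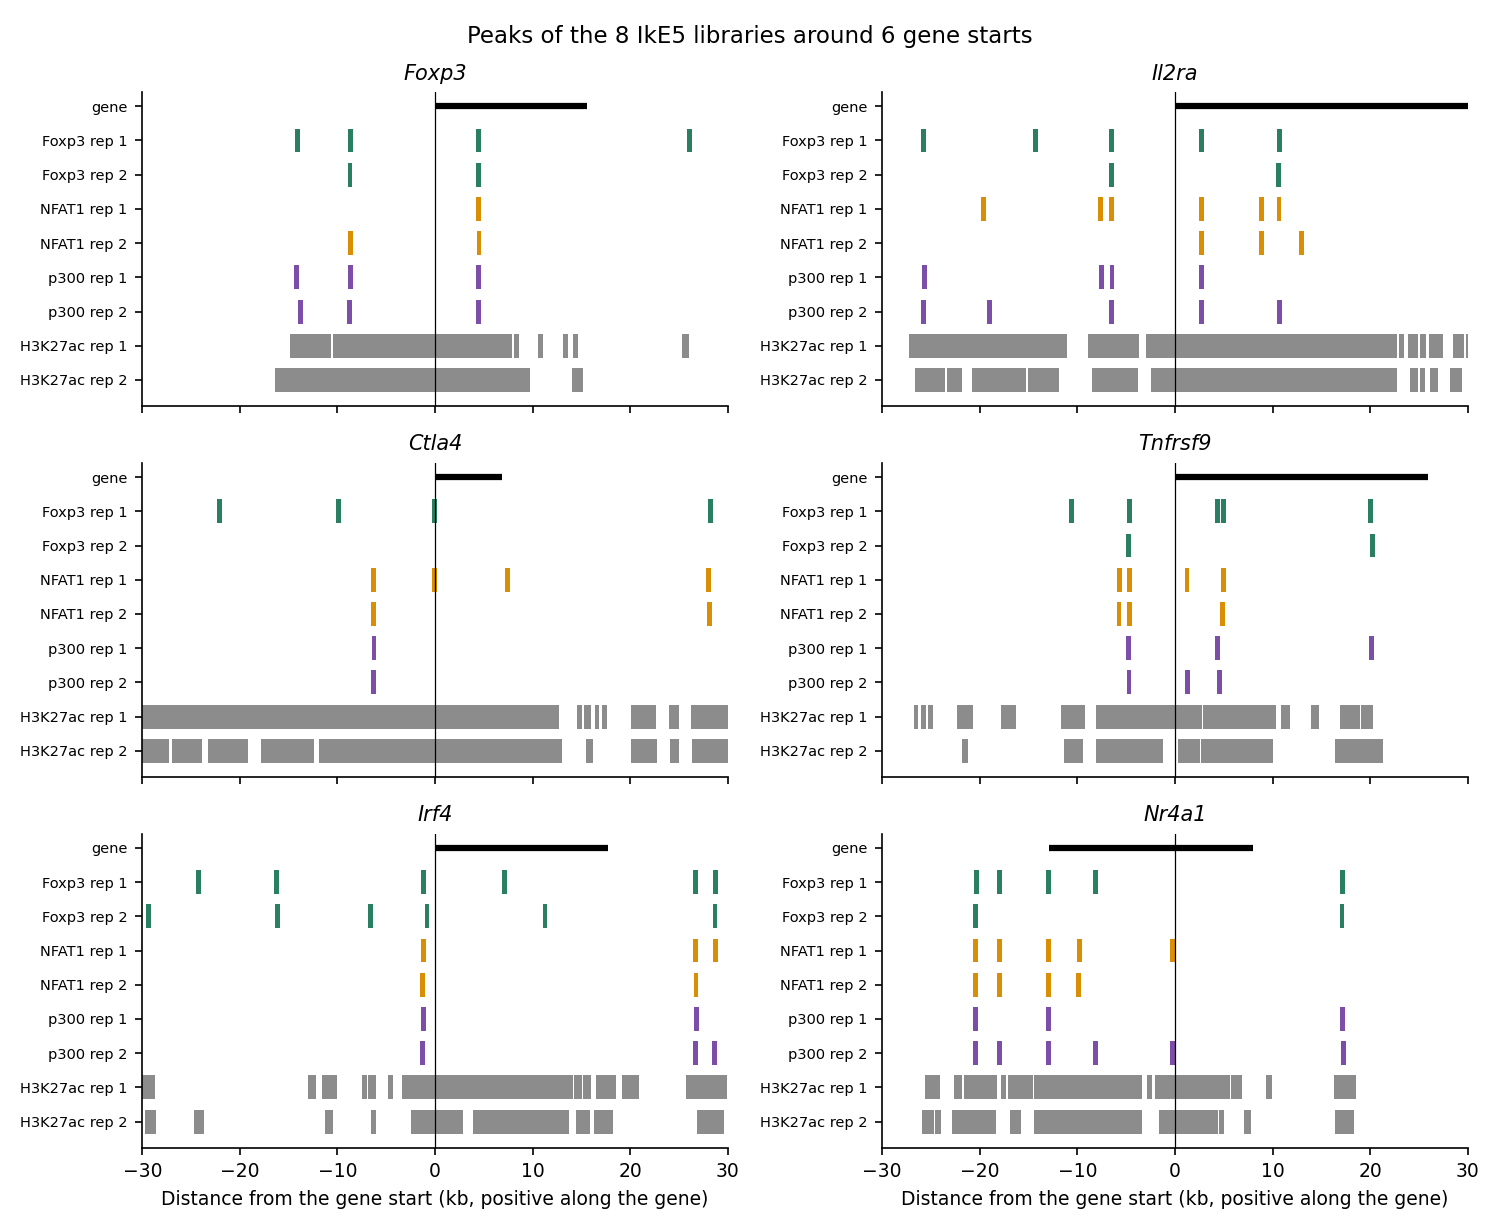
Peaks of the 8 libraries (coloured bars, to scale) within 30 kb of a listed start of Foxp3, Il2ra, Ctla4, Tnfrsf9, Irf4 and Nr4a1. The horizontal axis is distance from the start in kb, positive along the gene, the black bar is the gene, and the listed start of Nr4a1 lies inside its longest span. The site inside Foxp3 has a peak in all 8 libraries, and the site upstream of Ctla4 has NFAT1, p300 and H3K27ac in both libraries and no Foxp3 peak. At the Ctla4 start Foxp3 and NFAT1 have a peak in replicate 1 only.

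The 49 sites of NFAT1 with p300 that had no Foxp3 peak in either library are the part of that class that does not rest on the difference between the Foxp3 libraries. They were acetylated at 91.8%, and 10.2% lay within 1 kb of a start. Besides Ctla4, Pdcd1 and Bach2 their nearest genes included Fasl (chr1:161772845-161773423), the death ligand gene, Cxcr3 (chrX:101729947-101730475), a chemokine receptor gene of type 1 responses, Nfkb1 (chr3:135670418-135671032) and Tet2 (chr3:133544961-133545562), a demethylation enzyme gene. Another lay near Itgam, a myeloid integrin gene, and was not acetylated. These genes were picked after the sites were seen. Of the 73 sites of Foxp3 with NFAT1, 13 had no p300 peak in either library, among them 1 inside Ppp3r1 (chr11:17159933-17160800), which encodes the regulatory subunit of calcineurin.

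The labelled cell type was checked against defining markers. All 5 Treg markers (Foxp3, Il2ra, Ctla4, Ikzf2 and Tnfrsf18) had acetylated regions in the gene or within 10 kb, covering 202.5 and 162.0 kb in the 2 libraries. Of 5 B cell markers Cd79a, Cd79b and Pax5 had one, over 3.37 and 2.99 kb in all, and Ms4a1 had none. Of 5 myeloid markers Itgam and Cd14 had one, over 1.72 and 1.82 kb, and of 5 CD8 and NK markers Cd8b1 did, over 1.3 and 0.695 kb. Itgam, Cd14 and Cd8b1 also had a factor site. Whether other cells contributed to those sites was not tested.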

How the data were processed

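The build was mm10, and HOMER, MACS2, Bowtie2, FastQC and bedtools were used, per the submitters' processing notes. The tools' roles, versions and thresholds are not given in the sources used here. The authors deposited a BED list per library with chromosome, start and end and no score, so depth and peak height are unknown, and the 2 input libraries of this genotype, which came without a list, are not analysed here. Overlaps, counts and distances were computed with Python 3.11.15 and numpy 2.4.6, and the joining and counting code was checked on simulated peaks. Gene spans of 21887 protein-coding genes and starts of 17492 of them come from RefSeq tables of GRCm38.p6. Of the genes in the lists 318 matched by symbol and 2 list entries did not. With 1 genotype and 2 libraries per target no test was made. Spread is the range over library choices or the SD of 2 libraries or 4 library pairs. The members, gene lists and alternatives were chosen with earlier results of these data known. Named genes are a fixed panel of 30 loci, the 12 genes with the most sites of all 3 factors, the leading 3 genes of each other combination, up to 4 leading members per list and the genes in the 3 acetylated regions with the most sites. Others are said to be picked after their values were seen. A few genes of the lists are not reported here. Alternatives were an overlap of 250 bp, presence in either library, leaving out each replicate or single library, joining at 500 bp, direct overlap with a Foxp3 region, sites up to 1000 bp, the centre inside an H3K27ac region, and windows of 2 and 50 kb around genes.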

Additional observations from a re-analysis of the deposited data

How the results depend on the processing

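Counts of sites followed the choice of libraries most. With presence in either library in place of both, regions numbered 27590 for Foxp3, 5694 for NFAT1, 14144 for p300 and 51196 for H3K27ac. Sites of all 3 factors rose in number to 4433, with 7684 of Foxp3 with p300, 415 of Foxp3 with NFAT1, 318 of NFAT1 with p300 and 14916 of Foxp3 alone. NFAT1 was then at 17.6% and p300 at 44.4% of Foxp3 regions, Foxp3 at 85.1% of NFAT1 and 86.2% of p300 regions, H3K27ac at 92.2% of sites of Foxp3 with p300, 88.9% of Foxp3 with NFAT1, 71.2% of Foxp3 alone, 73.3% of p300 alone and 71% of NFAT1 alone, and 2781 genes had a site of all 3 factors within 10 kb.

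Leaving out replicate 1 or 2 of every target, or a single library (an alternative chosen after seeing the data), gave 1338 to 3539 sites of all 3 factors, 2130 to 6147 of Foxp3 with p300, 37 to 615 of Foxp3 with NFAT1, 54 to 1287 of NFAT1 with p300, 4846 to 15170 of Foxp3 alone, 298 to 4316 of p300 alone and 135 to 1246 of NFAT1 alone. Without NFAT1 replicate 2 there were 346 sites of Foxp3 with NFAT1 and 1246 of NFAT1 alone, and without p300 replicate 2 there were 4983 of Foxp3 with p300 and 4316 of p300 alone. Regions ranged from 17265 to 21619 for Foxp3, 3435 to 4908 for NFAT1, 8971 to 11670 for p300 and 37152 to 47982 for H3K27ac. NFAT1 was at 8.16% to 21% and p300 at 24.9% to 56.5% of Foxp3 regions, Foxp3 at 47.2% to 92.6% and p300 at 67.5% to 90.2% of NFAT1 regions, and Foxp3 at 54.6% to 94.5% and NFAT1 at 20.1% to 51.1% of p300 regions. H3K27ac was at 93.3% to 95.1% of sites of all 3 factors, 89.1% to 94.8% of Foxp3 with p300, 87.2% to 92.5% of Foxp3 with NFAT1, 84.2% to 92.6% of NFAT1 with p300, 68.6% to 84.8% of Foxp3 alone, 68.4% to 86.6% of p300 alone and 64.7% to 91.1% of NFAT1 alone. Genes with a site of all 3 factors within 10 kb numbered 961 to 2310.

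An overlap of 250 bp gave H3K27ac at 91.4% of sites of Foxp3 with p300 and 83.5% of Foxp3 alone. With the centre of the site inside the region the shares were 91.5%, 90.4% (Foxp3 with NFAT1) and 83.4%. Within 50 kb 2088 genes had a site of all 3 factors. Sites farther than 2 kb and farther than 50 kb from a gene made up 45.1% and 15% for all 3 factors, 29.9% and 10.2% for Foxp3 with p300, 24.7% and 8.22% for Foxp3 with NFAT1, 34.4% and 10.4% for NFAT1 with p300, 21.9% and 7.06% for Foxp3 alone, 38.6% and 13.2% for p300 alone, and 32.1% and 8.6% for NFAT1 alone. Sites of all 3 factors had a higher H3K27ac share than Foxp3 alone with the 250 bp overlap, with presence in either library, with the centre rule and without each replicate or library. The share was not recomputed under the others. The cause of the shifts was not tested.

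No paired analysis was possible because all samples are of 1 genotype, so there are no groups to compare within a replicate number. Overlaps of same-numbered libraries of different targets are among the library pairs of the text. Without reads, a missing peak cannot be told apart from one under the calling threshold, so a factor called alone is one with no region of another factor found in both of its libraries. Peak lists show presence, not occupancy level, and nearness to a gene does not show which gene a site acts on.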

Other observations

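The leading genes of the combinations overlapped in part. Inpp4b was among the leaders for all 3 factors (4 sites), Foxp3 with p300 (5) and NFAT1 with p300 (5), and Arid5b for all 3 factors (4) and NFAT1 with p300 (5). All counts here rest on regions in both libraries. Foxp3 with p300 was most frequent at Rora, which encodes a nuclear receptor of type 3 and tissue lymphocytes, with 6 sites, and at Igf1r with 5. NFAT1 with p300 was most frequent at Prkch, the gene of protein kinase C eta, with 7 sites, and of its 11 sites in all 1 held Foxp3 in both libraries. Foxp3 alone led at Maml3, a Notch coactivator gene, and Slc9a9 with 7 sites each. Neither gene had a site with NFAT1. p300 alone led at Msi2, an RNA-binding protein gene, with 5. NFAT1 alone led at Ikzf2, the gene of the Ikaros relative Helios, with 4 sites, all with a Foxp3 peak in replicate 1. Of these, chr1:69618692-69619334 had no p300 peak in either library, and the others had a p300 peak in a single library. Next for NFAT1 alone came Itpkb, which encodes a kinase of inositol trisphosphate, and Tox with 3 each.

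Genes with more sites of any combination more often had one of all 3 factors. Such a site is itself among those counted, so the rise follows at least in part from the counting. Of 6413 genes with 1 site of any combination within 10 kb 4.52% had one of all 3 factors, of 930 with 3 to 5 sites 28.7%, and of 126 with 6 to 10 sites 65.1%. Sites of all 3 factors lay a median of 168.6 kb from the next of their kind, and 30.2% had another within 50 kb. Their share of the sites of a chromosome ran from 7.62% on chromosome 8 to 12.3% on chromosome 10.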
